A study of Mus musculus with 4 samples.

Results

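The genes described here are 10 members of the layer that couples cytokine and growth factor receptors to RAS, PI3K and ubiquitin ligases: the adaptors Shc1, Grb2, Gab1, Gab2 and Gab3, the RAS exchange factor Sos1, the SHP phosphatases Ptpn11 and Ptpn6, and the CBL ubiquitin ligases Cbl and Cblb. They were chosen by gene symbol, and each matched 1 of the 23756 genes in the deposited tables. RNA-seq was performed on 32Dcl3-Abl1ko cells, derived from an IL-3-dependent murine bone marrow line in which Abl1 was targeted with CRISPR/Cas9. Cells kept with IL-3 (Abl1ko/IL3+, 2 libraries) were compared with cells growing without IL-3 (Abl1ko/IL3-, 2 libraries), so both groups carried the Abl1 knockout. The Abl1-positive control cells were not analysed here. According to the study's methods, edited cells were obtained with a lentiviral CRISPR vector and single clones were picked. Elsewhere the study describes edited populations in which factor-independent cells arose after a gradual withdrawal of IL-3. The libraries of a group are given as biological duplicates, but no source ties a library to a guide or a clone.

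Background on the pathway is as follows. When IL-3 binds its receptor, the common beta chain is phosphorylated on tyrosines. SHC1 docks there and, once phosphorylated itself, recruits GRB2, which brings SOS1 to the membrane to load RAS with GTP. GRB2 also carries GAB2, a scaffold that is phosphorylated in turn and binds the p85 subunit of PI3K and SHP2. SHP2, encoded by Ptpn11, is a phosphatase that promotes RAS-ERK signaling, and SHP1, encoded by Ptpn6, is a hematopoietic phosphatase known for damping cytokine receptor signaling. CBL and CBLB add ubiquitin to activated receptors and kinases and so limit their signaling.

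The total counts ranged from 48953174 to 60382588 per library, where 3 counts correspond to between 0.0497 and 0.0613 CPM (counts scaled to the library total). This floor reflects counting error alone. Abl1 itself was counted 1322 and 2222 times in cells with IL-3 and 1544 and 2256 times in cells without it. Reads from an allele with a small CRISPR lesion are still counted, so these values do not check the knockout. The labels call the cells pre-B cells, but most markers of myeloid progenitors were far more abundant than those of B cells. Mpo, the granule peroxidase, was between 523.8 and 2030.0 CPM, while Rag1, the recombinase of developing lymphocytes, was between 0 and 0.067 CPM. Of the pre-B and B cell markers, Cd79b, a chain of the B cell receptor complex, was the highest on average at 10.1 to 17.5 CPM, Cd79a was between 0.721 and 10.5 CPM and Vpreb1 between 0.955 and 3.21 CPM. The 10 myeloid markers summed to between 2108 and 3861 CPM, with Mpo the highest of them in every library. Elane (2.35 to 5.03 CPM) and Csf3r (at most 0.81 CPM) were low and lay below Cd79b in every library. Libraries of 1 group differed in other lineage genes. All 6 mast cell and basophil markers were in the tables. They summed to 808.6 CPM in Abl1ko/IL3+ replicate 1 and to between 104.1 and 251.4 CPM in the other libraries. That sum came mainly from Cpa3, Gata2 and Fcer1a (338.0, 238.5 and 209.6 CPM in that library). Mcpt8 went the other way, at 20.5 CPM there and 35.5 to 69.2 CPM in the others. Ms4a2 was between 1.99 and 3.06 CPM, and Kit was at or near 0 throughout (at most 0.082 CPM). The 5 erythroid markers summed to 430.7 CPM in that library and to between 1922 and 6706 CPM in the others, mostly from Hba-a1. The 5 macrophage markers summed to 277.5 and 47.4 CPM with IL-3 and to 74.8 and 186.7 CPM without it, and the 3 T cell markers found to at most 2.64 CPM. Abl1ko/IL3+ replicate 1 stood apart in the genes described here too. After normalization 7 of the 10 had their highest value in that library, where 31.8% of the 16535 genes tested did. The part of these cell type markers in the results below was not tested, and in bulk RNA fewer cells of a type and less RNA per cell cannot be told apart.

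Levels between genes were compared as FPKM, the authors' values scaled by gene length and library. Ptpn6 and Grb2 were the most abundant. Ptpn6 was at 93.2 and 148.7 FPKM with IL-3 and at 104.6 and 96.6 FPKM without it. Grb2 was at 102.6 and 78.4 FPKM with IL-3 and at 74.0 and 92.3 FPKM without it. Ptpn11, Shc1 and Gab2 followed with means over the 4 libraries of 13.8, 11.5 and 11.4 FPKM, then Cbl (5.81 FPKM), Cblb (2.74 FPKM), Sos1 (2.06 FPKM) and Gab3 (1.17 FPKM). Gab1 was last at 0.0545 FPKM. Neighbours in this order were separated without overlap at 2 steps, from Grb2 to Ptpn11 and from Gab3 to Gab1. All other neighbours had ranges over the 4 libraries that overlapped. The exchange factor Sos1 was thus low beside its carrier Grb2 in all 4 libraries.

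**Figure D1:**
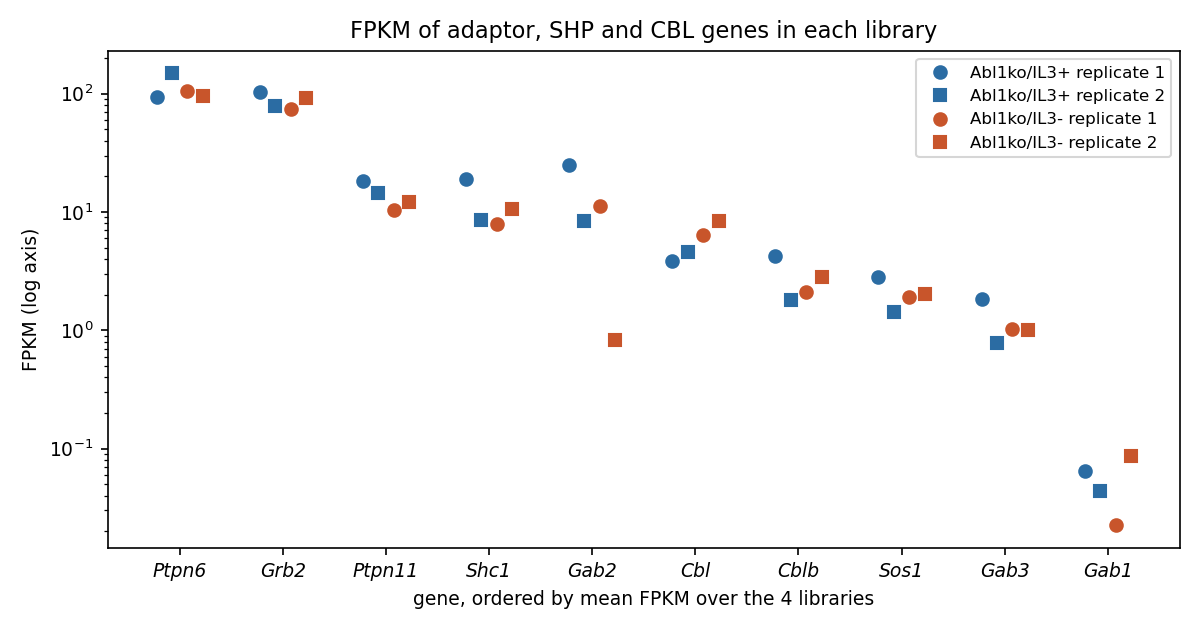
FPKM of each gene (log axis) in the 4 libraries, with genes ordered by their mean; blue symbols are Abl1ko/IL3+, orange symbols Abl1ko/IL3-, circles replicate 1 and squares replicate 2. Ptpn6 and Grb2 lie near 100 FPKM in every library, Gab1 lies below 0.1 FPKM, and Gab2 in Abl1ko/IL3- replicate 2 (0.832 FPKM) is far below its other 3 values.

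Without against with IL-3, 0 of the 10 genes passed the threshold of 0.05 on the adjusted p-value (quasi-likelihood F test of edgeR, adjusted by Benjamini-Hochberg over all genes tested). In the same test 0% of the 16535 genes tested passed. At an unadjusted p-value under 0.05 the count was 0 of 10 with edgeR, where 5.91% of all genes tested had one. DESeq2's Wald test also called 0 of 10, at an adjusted threshold that 1.64% of all genes passed, and 0 of 10 had an unadjusted p-value under 0.05 there, against 8.28% of all genes. The fitted log2 fold change was above 0 for 1 gene, Cbl, and below 0 for 9, while it was above 0 for 7946 and below 0 for 8589 of all genes tested. The median over the 10 genes was -0.30, and that of all genes tested was -0.027. This tally rested on Abl1ko/IL3+ replicate 1, since without that library 5 genes were above 0 and 5 below, with a median of 0.043. Both Abl1ko/IL3- libraries were above both Abl1ko/IL3+ libraries for 1 of the 10 genes (Cbl) and below both for 1 (Ptpn11). Among all genes tested these patterns were found in 19.4% and 17.9%, or 37.3% in either direction, so the 2 of 10 separated here do not exceed that background.

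**Figure D2:**
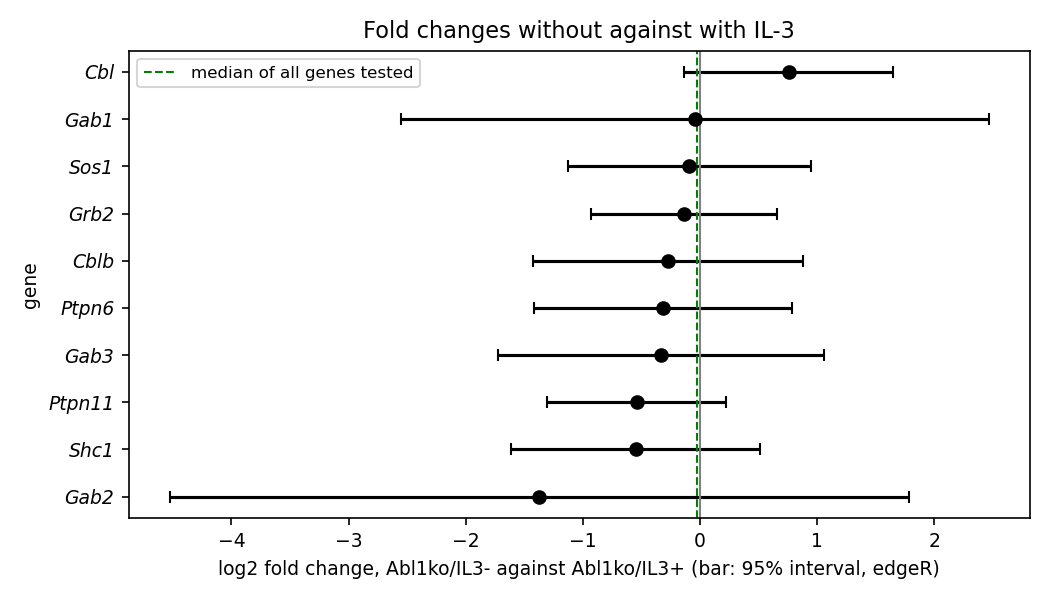
Log2 fold change of each gene, Abl1ko/IL3- against Abl1ko/IL3+, from edgeR, with bars for the 95% interval and a dashed line at the median of all genes tested (-0.027). All 10 intervals include 0, and those of Gab1 and Gab2 are the widest.

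Cbl, the ubiquitin ligase for activated tyrosine kinases, had the lowest unadjusted p-value of the 10 genes. The gene lies on chromosome 9 from 44142976 to 44234049 (GRCm38, minus strand). It was counted 3208 and 3859 times in cells with IL-3, whereas cells without it gave 4426 and 6473 counts. In FPKM it was at 4.24 ± 0.516 (SD, n = 2) with IL-3 and at 7.38 ± 1.38 (SD, n = 2) without it. Every value without IL-3 was higher than every value with IL-3, in FPKM and in normalized CPM. The log2 fold change was 0.76 (standard error 0.35, 95% interval -0.13 to 1.65), which did not pass the threshold (unadjusted p = 0.0809, adjusted p = 0.855 in edgeR). In DESeq2 it was 0.75 (adjusted p = 0.783). When any 1 library was left out the values ran from 0.54 to 1.04. Because the groups did not overlap, such a fit could hardly turn the sign, so the kept direction is no further check. Part of the Cbl transcript aligns to annotated pseudogenes, and the only one of these in the tables had at most 4 counts. Whether they derive from Cbl was not tested.

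Cblb, the paralog of Cbl and known as a brake on lymphocyte activation, did not follow it. It lies on chromosome 16 from 52031225 to 52208048 (GRCm38, plus strand). Its level was 4.23 and 1.81 FPKM with IL-3 and 2.09 and 2.83 FPKM without it. Both Abl1ko/IL3- values lay between the Abl1ko/IL3+ values. The log2 fold change was -0.27 (standard error 0.45, 95% interval -1.43 to 0.88, adjusted p = 0.973 in edgeR), and it turned to 0.30 without Abl1ko/IL3+ replicate 1. Within a library, Cblb reached 1.09 times the FPKM of Cbl in Abl1ko/IL3+ replicate 1 and 0.393 times in replicate 2, against 0.327 and 0.339 times in the Abl1ko/IL3- libraries. The ratio was therefore lower in both libraries without IL-3, with a difference of -0.98 on the log2 scale. An exact permutation test over the 4 libraries gave p = 0.333 (two-sided, adjusted p = 1 over 4 ratios), which is the smallest p that 2 libraries against 2 allow. Without Abl1ko/IL3+ replicate 1 the difference was -0.24.

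Ptpn11, which encodes the phosphatase SHP2, was the gene with lower values in both libraries without IL-3. It lies on chromosome 5 from 121130533 to 121191397 (GRCm38, minus strand). Cells with IL-3 gave 9106 and 7308 counts, and those without it 4352 and 5713. In FPKM the level was 16.3 ± 2.66 (SD, n = 2) with IL-3 and 11.3 ± 1.26 (SD, n = 2) without it. The groups did not overlap, and after normalization the replicates of a group were within 1.05-fold of each other with IL-3 and 1.08-fold without it. The log2 fold change was -0.54 (standard error 0.30, 95% interval -1.30 to 0.22), which did not pass the threshold (unadjusted p = 0.127, adjusted p = 0.873 in edgeR). DESeq2 gave -0.55 (adjusted p = 0.926). Leaving out any 1 library gave values from -0.59 to -0.49, the narrowest range of the 10 genes. This range follows from the close replicates, and the direction from groups that did not overlap. As for Cbl, neither is a further check.

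Ptpn6, which encodes SHP1, is on chromosome 6 from 124720707 to 124738625 (GRCm38, minus strand). It was counted 17497 and 28275 times with IL-3, and 16411 and 16975 times without it. Both FPKM values without IL-3 lay between the Abl1ko/IL3+ values, which differed from each other by 1.92-fold after normalization. Its log2 fold change was -0.32 (standard error 0.43, 95% interval -1.42 to 0.79, adjusted p = 0.966 in edgeR), and without Abl1ko/IL3+ replicate 2 it was 0.23. An antisense gene, Gm20531, overlaps 6.96% of the Ptpn6 exon bases and had at most 11 counts. Ptpn6 exceeded Ptpn11 in every library, by 5.14 and 10.3 times in FPKM with IL-3 and by 10.1 and 7.95 times without it. The ratios of the groups overlapped (difference 0.30 on the log2 scale, exact permutation test, two-sided, p = 1, adjusted p = 1), and without Abl1ko/IL3+ replicate 1 the difference was -0.21.

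The 250 bases before the annotated start of Cbl and Ptpn11 are shown because these were the genes whose groups did not overlap, in opposite directions. They were taken from RefSeq (GRCm38.p6), which gave 11 start windows for 8 of the 10 genes. The Cbl window is chr9:44234047-44234296 and the Ptpn11 window chr5:121191398-121191647, both on the minus strand and written 5′ to 3′ in the direction of transcription. Capitals mark matches to the GC box GGGCGG, on either strand, and in Ptpn11 also to the cAMP response element TGACGTCA.
Cbl: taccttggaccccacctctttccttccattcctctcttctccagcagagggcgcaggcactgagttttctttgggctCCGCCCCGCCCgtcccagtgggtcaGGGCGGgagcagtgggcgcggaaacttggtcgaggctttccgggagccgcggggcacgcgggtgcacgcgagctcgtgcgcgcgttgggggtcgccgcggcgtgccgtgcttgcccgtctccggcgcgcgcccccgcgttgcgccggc
Ptpn11: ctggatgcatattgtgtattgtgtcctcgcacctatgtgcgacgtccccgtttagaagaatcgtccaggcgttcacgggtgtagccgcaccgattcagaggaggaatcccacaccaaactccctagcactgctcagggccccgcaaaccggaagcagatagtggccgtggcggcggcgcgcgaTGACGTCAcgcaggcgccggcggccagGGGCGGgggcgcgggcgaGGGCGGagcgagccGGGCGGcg

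Both windows were rich in G and C, at 71.6% in Cbl and 66.8% in Ptpn11, against a median of 52.4% over 32851 windows of the same length. Each held 3 GC boxes, which overlap in part in Cbl, and 32.7% of all windows held at least 1. The cAMP response element was found in 1.55% of all windows. Neither window matched the STAT motif TTCNNNGAA, the CCAAT box CCAAT or TATAAA, which 7.02%, 33.8% and 12.4% of all windows held on either strand. Among the 8 genes with a window, Gab1 alone had a STAT match. A match or its absence describes these letters and says nothing of whether a factor binds. The motifs were chosen with the results known.

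Among the GAB scaffolds, Gab2 had the highest FPKM in 3 of the 4 libraries, and Gab3 in Abl1ko/IL3- replicate 2. Gab2 lies on chromosome 7 from 97081586 to 97308946 (GRCm38, plus strand) and gave 10377 and 3521 counts in cells with IL-3, against 3910 and 322 in cells without it. The levels were 25.1 and 8.41 FPKM with IL-3 and 11.3 and 0.832 FPKM without it. Abl1ko/IL3- replicate 1 lay between the Abl1ko/IL3+ libraries, and only replicate 2 was below both. The Abl1ko/IL3- replicates differed by 14.7-fold after normalization, a gap that 3.84% of all genes tested reached in that group. The log2 fold change, -1.37, was the largest in size among the 10 genes, but its standard error was 1.23 (95% interval -4.53 to 1.78, adjusted p = 0.931 in edgeR). Without Abl1ko/IL3- replicate 2 it was -0.46, and without Abl1ko/IL3- replicate 1 it was -4.35 (adjusted p = 0.320 in edgeR). No gene in the annotation shares exon bases with Gab2.

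Gab3, a scaffold related to Gab2 and on chromosome X from 74966843 to 75084905, was at 1.85 and 0.788 FPKM with IL-3 and at 1.03 and 1.01 FPKM without it. Both values without IL-3 lay between those with IL-3. Its log2 fold change was -0.33 (standard error 0.54, adjusted p = 0.973 in edgeR), and 0.24 without Abl1ko/IL3+ replicate 1. Gab1, the scaffold best known downstream of receptor tyrosine kinases, is on chromosome 8 from 80764438 to 80880519 and was counted only 23 and 16 times with IL-3, and 7 and 28 times without it. An antisense gene overlaps 5.23% of its exon bases and was not analysed here. The exact 95% Poisson intervals, which cover counting error only, ran from 14.6 to 34.5 and from 9.15 to 26.0 counts with IL-3, and from 2.81 to 14.4 and from 18.6 to 40.5 counts without it. The lowest and highest Gab1 values were thus both in Abl1ko/IL3- libraries. Its log2 fold change was -0.045 (standard error 0.97, 95% interval -2.55 to 2.46, adjusted p = 0.999 in edgeR). The sign turned with library-size scaling and without Abl1ko/IL3+ replicate 1 or Abl1ko/IL3- replicate 1, so no direction is given.

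Gab2 had 384.9 and 192.8 times the FPKM of Gab1 with IL-3, and 503.3 and 9.61 times without it. Gab3 was at 0.0735 and 0.0937 times Gab2 with IL-3 and at 0.0914 times in Abl1ko/IL3- replicate 1. In Abl1ko/IL3- replicate 2 it was at 1.22 times Gab2, so in that library Gab3 was the higher of the pair. For neither ratio were the groups apart beyond their spread. The Gab2/Gab1 difference was -1.97 on the log2 scale (exact permutation test, two-sided, p = 1, adjusted p = 1) and turned to 0.89 without Abl1ko/IL3- replicate 2. The Gab3/Gab2 difference was 2.01 (exact permutation test, p = 0.667, adjusted p = 1) and fell to 0.14 without that library.

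**Figure D3:**
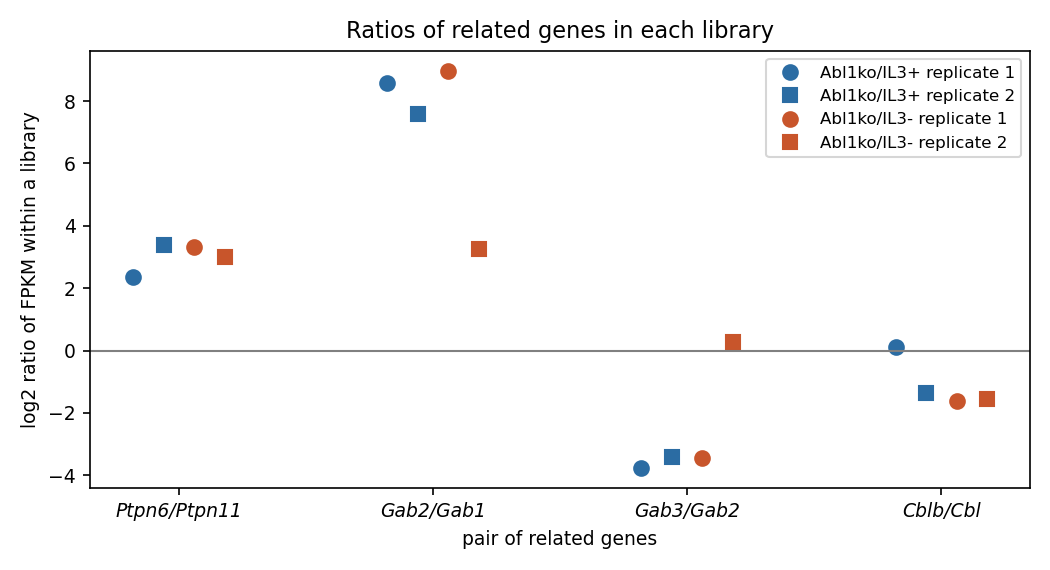
Log2 ratio of FPKM between related genes within each library; blue is Abl1ko/IL3+, orange Abl1ko/IL3-, circles are replicate 1 and squares replicate 2. Abl1ko/IL3- replicate 2 stands apart in both ratios with Gab2 (9.61 times Gab1, and Gab3 at 1.22 times Gab2), and Abl1ko/IL3+ replicate 1 stands apart for Cblb/Cbl (1.09 times).

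The core of the RAS-loading branch showed small fitted differences. Grb2, the SH2-SH3 adaptor that links SHC1 to SOS1 and also carries GAB2, lies on chromosome 11 from 115644045 to 115708597. It gave 20052 and 15506 counts in cells with IL-3, against 12085 and 16877 in cells without it. Its log2 fold change was -0.13 (standard error 0.31, 95% interval -0.93 to 0.66, adjusted p = 0.980 in edgeR), and the groups overlapped. A processed copy that is 98.0% identical over 655 bases, Gm12791, had between 22 and 63 counts, and reads shared by the pair could have been assigned to either. Sos1, on chromosome 17 from 80393751 to 80480453, was at 2.83 and 1.44 FPKM with IL-3 and at 1.93 and 2.03 FPKM without it. Both Abl1ko/IL3- values again lay between those with IL-3. Its paralog Sos2, named here after its values were seen, was higher in every library, at 11.3 and 4.59 FPKM with IL-3 and at 6.38 and 6.69 FPKM without it. For Sos1 the log2 fold change was -0.092 (standard error 0.40, 95% interval -1.13 to 0.94, adjusted p = 0.993 in edgeR), and 0.33 without Abl1ko/IL3+ replicate 1.

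Shc1, the adaptor that docks on the phosphorylated receptor, is on chromosome 3 from 89418443 to 89430015. It gave 7136 and 3286 counts in cells with IL-3, against 2509 and 3736 in cells without it. Abl1ko/IL3+ replicate 1 was the highest library, and the other 3 lay close together, between 7.93 and 10.5 FPKM, against 18.9 FPKM. For Shc1 the log2 fold change was -0.55 (standard error 0.41, 95% interval -1.61 to 0.51, adjusted p = 0.909 in edgeR). Without Abl1ko/IL3+ replicate 1 it was -0.034. A processed copy of Shc1, 98.5% identical over 919 bases, had between 11 and 79 counts.

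**Figure D4:**
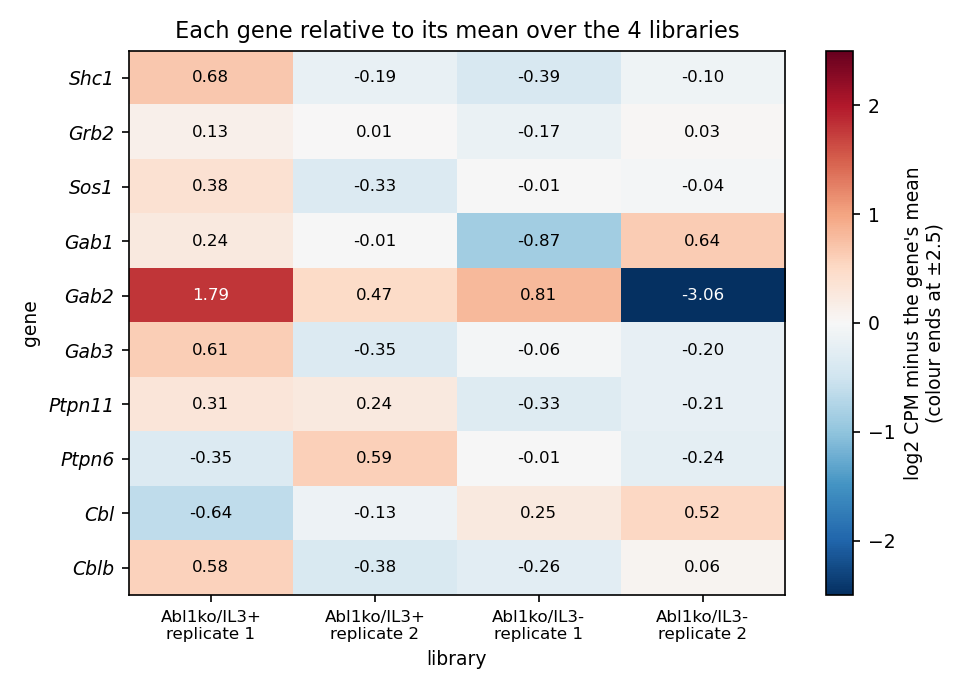
Log2 CPM of each gene minus its mean over the 4 libraries, in rows grouped as adaptors and exchange factor, GAB scaffolds, SHP phosphatases and CBL ligases; red is above and blue below the mean, and colour ends at 2.5. Abl1ko/IL3+ replicate 1 is the highest library for 7 genes and the lowest for Ptpn6 and Cbl, and Gab2 in Abl1ko/IL3- replicate 2 (-3.06) is the largest deviation.

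The genes whose pattern over the 4 libraries was nearest to that of Cbl, among 5435 genes with a mean of at least 5 log2 CPM, were Gng5, Med21 and Ninj1. Their centred log2 CPM differed from that of Cbl by a root mean square of 0.030, 0.058 and 0.065. Gng5, a G protein gamma subunit, gave 7311 and 8698 counts in cells with IL-3, against 9643 and 14077 in cells without it. Each of the 3 genes was higher in both libraries without IL-3, as Cbl was, which follows from how they were picked. With 4 libraries such likeness describes these samples only.

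A list of 36 further adaptors, phosphatases and regulators that act at cytokine and antigen receptors was examined beside the 10 genes. Of these, 32 were in the tables and 31 passed the expression filter. None passed the adjusted threshold in edgeR or DESeq2, where 0% and 1.64% of all genes tested passed, and 2 of 31 had an unadjusted p-value under 0.05 in each, against 5.91% of all genes in edgeR and 8.28% in DESeq2. The fitted log2 fold change was above 0 for 11 and below 0 for 20, with a median of -0.20. Both Abl1ko/IL3- libraries were above both Abl1ko/IL3+ libraries for 4 of them and below both for 5, against 19.4% and 17.9% of all genes tested. With library-size scaling the counts were 4 and 3, against 21.5% and 15.5% of all genes. Dok2, an adaptor that recruits RasGAP and restrains RAS signaling in myeloid cells, gave 8928 and 13329 counts in cells with IL-3, against 4235 and 4820 in cells without it. Its log2 fold change was -1.16 (standard error 0.40, unadjusted p = 0.0331, adjusted p = 0.815 in edgeR). Sh2b1, an adaptor for JAK2 and receptor kinases, gave 1988 and 1366 counts in cells with IL-3, against 2809 and 2688 in cells without it. The corresponding log2 fold change was 0.91 (standard error 0.34, unadjusted p = 0.0433, adjusted p = 0.841 in edgeR).

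The other fitted values at the ends of that list had a large spread between replicates. Irs2, an insulin receptor substrate, had the lowest log2 fold change (-2.62, standard error 1.62, adjusted p = 0.893 in edgeR), from 671 and 12 counts in cells with IL-3 against 34 and 59 in cells without it. Ptprj, a receptor-type phosphatase, gave 7403 and 3721 counts in cells with IL-3, against 3268 and 324 in cells without it, so that Abl1ko/IL3- replicate 2 was the low library, as for Gab2. Cd2ap, which binds CBL proteins, gave 709 and 135 counts in cells with IL-3, against 710 and 752 in cells without it (log2 fold change 1.04, standard error 0.77, adjusted p = 0.908 in edgeR). Sh3kbp1, a related CBL-binding protein, gave 5216 and 974 counts in cells with IL-3, against 3350 and 2875 in cells without it. In both of these genes Abl1ko/IL3+ replicate 2 was the low library.

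**Figure D5:**
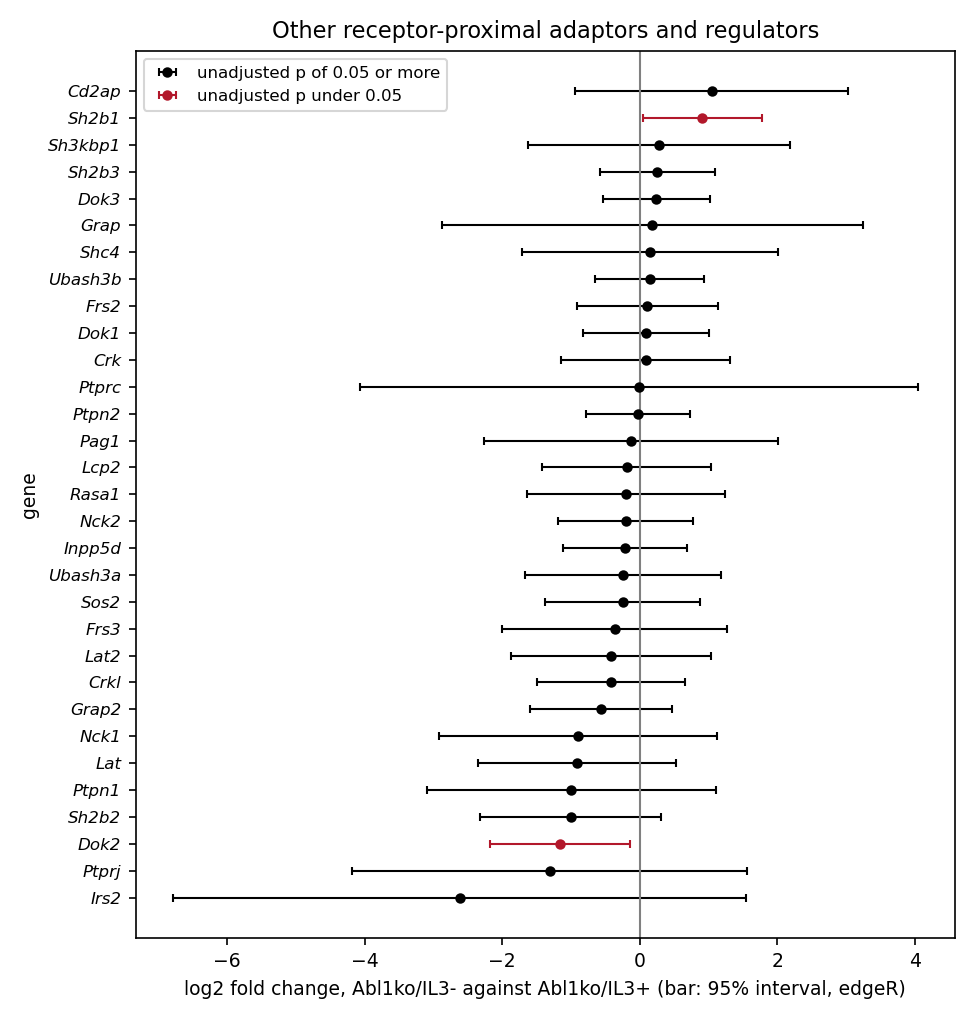
Log2 fold change with its 95% interval from edgeR for the 31 further adaptors and regulators tested, Abl1ko/IL3- against Abl1ko/IL3+, ordered by value; red marks the 2 with an unadjusted p-value under 0.05. Dok2 (-1.16) and Sh2b1 (0.91) are the ones whose intervals exclude 0.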

How the data were processed

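The authors removed ribosomal RNA before Illumina sequencing, aligned reads to GRCm38 with Rsubread and deposited raw counts per gene from featureCounts. The submitters' processing notes name STAR and Cuffdiff instead, with no role given. They also name mm10, which the study's methods give for the annotation of the counts. The authors also deposited FPKM values. How these were made, the versions used and whether counting used strand are not given in the sources used here. Without strand, reads of overlapping antisense genes cannot be told apart.

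Here counts were filtered with filterByExpr (16535 genes kept, all 10 members among them), normalized with TMM and tested with edgeR 4.0.16 (quasi-likelihood F test, two-sided, Benjamini-Hochberg adjustment over all genes tested, threshold 0.05) in R 4.3.3, without a block. The steps were tested on simulated data. The changes put in were larger than those fitted to the 10 genes with all 4 libraries, so recovery of differences of their size was not tested. Standard errors and 95% intervals were derived from the F statistic. Normalized CPM used the TMM factors. Alternatives were DESeq2 1.42.0, limma 3.58.1 on log2(FPKM + 1) and log2(FPKM + 0.1), library size only, no filter, 10 counts in every library, the replicate block and leaving out each library. Crossed pairs were added after seeing the data. The members, lists and motifs were chosen with earlier results of these data known. Genes named by rule were the members, Abl1 and the 3 genes nearest in pattern to the member with the lowest p-value. From the further list, the rule took genes with an unadjusted p-value under 0.05 and the 3 highest and 3 lowest fold changes. Sos2, from the same list, was added outside the rule after its values were seen. Overlaps and near copies were taken from GENCODE M21. Protein sequences were not used here.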

Additional observations from a re-analysis of the deposited data

How the results depend on the processing

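The number of the 10 genes past the adjusted threshold was 0 in every fit run, and so was that of the further adaptors tested. Over all genes the count was 0 in edgeR and 271 with DESeq2's Wald test, of which 111 were higher without IL-3, and from 0 to 15 when a library was left out (15 without Abl1ko/IL3- replicate 1), where the lone library of a group was assumed to vary like the others. The cause was not tested. A replicate block gave a count of 0 (548 genes with an unadjusted p-value under 0.05), and with the pairs crossed 0 (1136 genes). Libraries of the same number deviated from the group means with a correlation of -0.194 across genes, and no source says that a number pairs libraries. In fits of all 4 libraries, 1 of the 10 genes had an unadjusted p-value under 0.05 with the block and 1 with limma on log2(FPKM + 1). Neither passed the adjusted threshold. With the block it was Gab2 (log2 fold change -2.26), where 548 of the 16535 genes tested had such a p-value. With limma it was Cbl (log2 fold change 0.67), where 1188 had such a p-value. Without Abl1ko/IL3+ replicate 2 the log2 fold change was -0.92 for Shc1 and 1.04 for Cbl. Without Abl1ko/IL3- replicate 1 that of Gab2 was -4.35. By arithmetic a block cannot move the ratio differences in this design, so it is no check of them.

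Of 109 refitted fold changes of the 10 genes, 102 kept their direction, but most of the 109 came from fits of the same 4 libraries. The 7 that turned were all from fits that left out a library, except that of Gab1 with library size only. In that setting the log2 fold change of Gab1 was 0.00091. When a library was left out, log2 fold changes ran from -1.14 to 0.56 for Gab1 and -0.74 to 0.24 for Gab3. They ran from -0.41 to 0.33 for Sos1, -0.70 to 0.23 for Ptpn6 and -0.68 to 0.30 for Cblb. The ratio differences then ran from -0.21 to 0.80 for Ptpn6/Ptpn11 and from -4.82 to 0.89 for Gab2/Gab1. With 10 counts in every library Gab1 was not tested. Depth limited Gab1 most, with 7 to 28 counts per library.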
